A study of Rattus norvegicus with 34 samples.

Results

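The transcripts of inhibin, activin and anti-Müllerian hormone (AMH) signalling were followed in the testis of adult rats exposed to triazole fungicides from before birth. The set holds the inhibin and activin subunits Inha, Inhba and Inhbb, the activin-binding protein Fst, the activin receptors Acvr2a and Acvr1b, the inhibin co-receptor Tgfbr3, and Amh with its receptor Amhr2. Its members were the probe sets whose only gene symbol in the platform annotation is 1 of these 9 genes. This gave 11 probe sets of 8 genes, out of 14217 genes named by 1 symbol, and Acvr1b was not analysed here. Inhba, Fst and Tgfbr3 had 2 probe sets each.

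Male Wistar Han IGS rats were exposed through the feed from gestation day 6 to postnatal day 92, and RNA of the testis of each animal was hybridised to 1 Affymetrix rat genome array. The arrays with values were 3 of M500 (myclobutanil, 500 ppm), 5 of M2000 (myclobutanil, 2000 ppm), 4 of P500 (propiconazole, 500 ppm), 5 of P2500 (propiconazole, 2500 ppm), 4 of T500 (triadimefon, 500 ppm), 4 of T1800 (triadimefon, 1800 ppm) and 6 of Control (0 ppm). The 3 compounds are triazole fungicides, made against the fungal sterol demethylase and able to act on mammalian cytochrome P450 enzymes. The labels speak of biological replicates but do not give the litters, so animals of 1 litter may be among them. The animal numbers in the labels fall into an earlier and a later series. Control replicates 05, 06 and 07 and T1800 replicates 03, 04 and 05 were of the later series. All other arrays were of the earlier one. The comparisons of T1800 with T500, and of all exposed groups with Control, are thus in part also between series. T1800 and Control both hold arrays of either series, but in unequal shares.

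Inhibin and activin are dimers built from shared subunits. A beta subunit joined to the alpha subunit Inha makes inhibin, and beta subunits joined to each other make activin. In the adult testis the Sertoli cell secretes mainly inhibin B (Inha with Inhbb), which reaches the pituitary and restrains the secretion of follicle-stimulating hormone. Activin signals through type II receptors such as Acvr2a and the type I receptor Acvr1b to SMAD2 and SMAD3. Follistatin (Fst) traps activin, and betaglycan (Tgfbr3) lets inhibin hold the type II receptor. AMH, made by Sertoli cells, acts through Amhr2 and falls at puberty when androgens act on these cells.

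The promoters of the 2 secreted Sertoli products Inha and Amh are shown, since both genes are known targets of the nuclear receptor SF-1 and of GATA factors. Each window runs from 250 bases before to 50 bases after the gene's start in the RefSeq sequence of build GRCr8, 5′ to 3′ on the gene's strand. Capitals mark AGGTCA, the half-site that SF-1 binds, in either direction (TGACCT when read from the other strand), the variant cyclic AMP response element TGCGTCA, and the GATA core, which was searched as AGATAA, as AGATAG, as TGATAA and as TGATAG.
Inha, chr9:84442859-84443158, plus strand: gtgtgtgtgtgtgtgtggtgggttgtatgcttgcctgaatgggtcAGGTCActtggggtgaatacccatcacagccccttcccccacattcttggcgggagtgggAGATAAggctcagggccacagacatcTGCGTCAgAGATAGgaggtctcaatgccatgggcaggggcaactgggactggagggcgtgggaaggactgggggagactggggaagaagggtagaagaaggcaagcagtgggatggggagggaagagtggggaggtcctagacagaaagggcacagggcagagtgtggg
Amh, chr7:9559818-9560117, minus strand: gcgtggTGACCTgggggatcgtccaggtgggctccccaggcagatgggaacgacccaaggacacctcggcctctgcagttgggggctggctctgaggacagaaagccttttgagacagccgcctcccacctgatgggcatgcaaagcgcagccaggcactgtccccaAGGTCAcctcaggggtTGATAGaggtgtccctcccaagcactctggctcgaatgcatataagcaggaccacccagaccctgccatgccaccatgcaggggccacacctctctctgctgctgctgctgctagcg
In the Inha window the AGGTCA match began at position -205, the variant cyclic AMP element at -119 and the 2 GATA cores at -145 and -111, counted from the start of the gene. In the Amh window an AGGTCA match on the opposite strand began at -244, one on the gene's strand at -83, and a GATA core at -67. On both strands, 16.2% of the 33469 promoter windows of the same length held AGGTCA and 1.9% held TGCGTCA. Windows with a GATA core in any of its 4 spellings made up 30.3%. The full response element TGACGTCA, searched likewise and held by 1.83% of windows, was in neither sequence. In the windows of Inhbb, Acvr2a, Acvr1b, Tgfbr3 and Amhr2 none of the 4 motifs occurred, and the window of Inhba held 1 AGGTCA and 1 GATA core. These matches describe letters and are not measurements of binding. Variants of AGGTCA were not searched, so other sites that SF-1 may bind stay unmarked.

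All values below are deposited scores after quantile normalization, on a log-like scale of unknown base, so differences are in score units and not folds. For scale, the slope per doubling of the hybridisation controls spiked into each array had a median of 0.553 (0.524 to 0.609 over the arrays). The controls are other probe sets than the members, so this slope does not turn a member's difference into folds. The arrays differed in RNA quality, measured by the actin gap, which is the 3′ minus the 5′ score of the beta-actin control. In 5 arrays (M500 replicate 04, M2000 replicate 05, P2500 replicate 05, and Control replicates 02 and 06) the gap was 1.47 to 1.67, and in the other 26 it was at most 1.33. Control replicate 02 and M500 replicate 04 also had a wider deposited range, with highest scores of 8.21 and 8.394, against 3.885 to 5.776 elsewhere. After normalization 7.66% and 8.17% of their probe sets lay above bioB, the weakest hybridisation control, against 14.6% to 23.6% on the other arrays. Liver transcripts were high in P2500 replicates 02, 03 and 04, with a mean of 10 liver markers of 1.69 to 1.72 against -0.129 to 0.341 in the other arrays. Of 16 Sertoli markers 11 were measured, and their mean was between 1.19 and 1.24 in the 6 exposed groups and 1.23 in Control. In Control, clusterin (Clu), abundant in Sertoli cells, lay between 2.98 and 3.22, Cldn11 between 2.094 and 2.858, and Wt1 between 0.7535 and 1.179. Gata4 lay there between 0.3249 and 0.5563, and Gata1, a Sertoli transcription factor, between 0.0557 and 0.163. These levels belong to different probe sets and do not compare amounts of transcript. Whole testis was measured, so fewer cells of a type and less RNA per cell cannot be told apart.

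The members were spread widely in signal. Amhr2 lay above the weakest hybridisation control, bioB, on 30 of 31 arrays, Inha on 20, Acvr2a on 10 and Inhbb on 2. The other 7 probe sets lay below bioB on every array. Averaged over the arrays, 89.9% of probe sets were dimmer than that of Amhr2, 83% were dimmer than that of Inha, and only 32.7% were dimmer than that of Amh. The low position of Amh describes the probe set, since scores of different probe sets do not compare the amounts of their transcripts.

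No member differed from Control beyond the threshold in any exposed group. With limma's moderated test and Benjamini-Hochberg adjustment over 31042 probe sets, 0 of the 11 member probe sets passed an adjusted p of 0.05 in each of the 6 comparisons with Control. Of all probe sets 0% passed for M500, M2000, P500, P2500 and T500, and 0.00644% passed for T1800. At an unadjusted p under 0.05 stood Amh in M500, where 9% of all probe sets did so, 1 probe set of Inhba in P2500 (4.15% of all), and Amhr2 in T500 (7.62%) and in T1800 (5.84%). In M2000 (1.7% of all) and P500 (3.36%) no member did. The smallest adjusted p of a member was 0.51, and no member's exposed arrays lay wholly above or below the Control arrays. Of all probe sets, 1.12% lay wholly above and 0.889% wholly below Control in M500, 0.087% and 0.0677% in M2000, 0.441% and 0.235% in P500, 0.113% and 0.161% in P2500, 0.731% and 0.486% in T500, and 1.13% and 0.815% in T1800. All groups share the same 6 Control arrays, so their differences are not independent. Median differences of the 11 probe sets ran from -0.0133 (T500) to 0.00328 (T1800), beside medians of all probe sets from -0.00358 (P2500) to 0.000708 (P500).

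**Figure D1:**
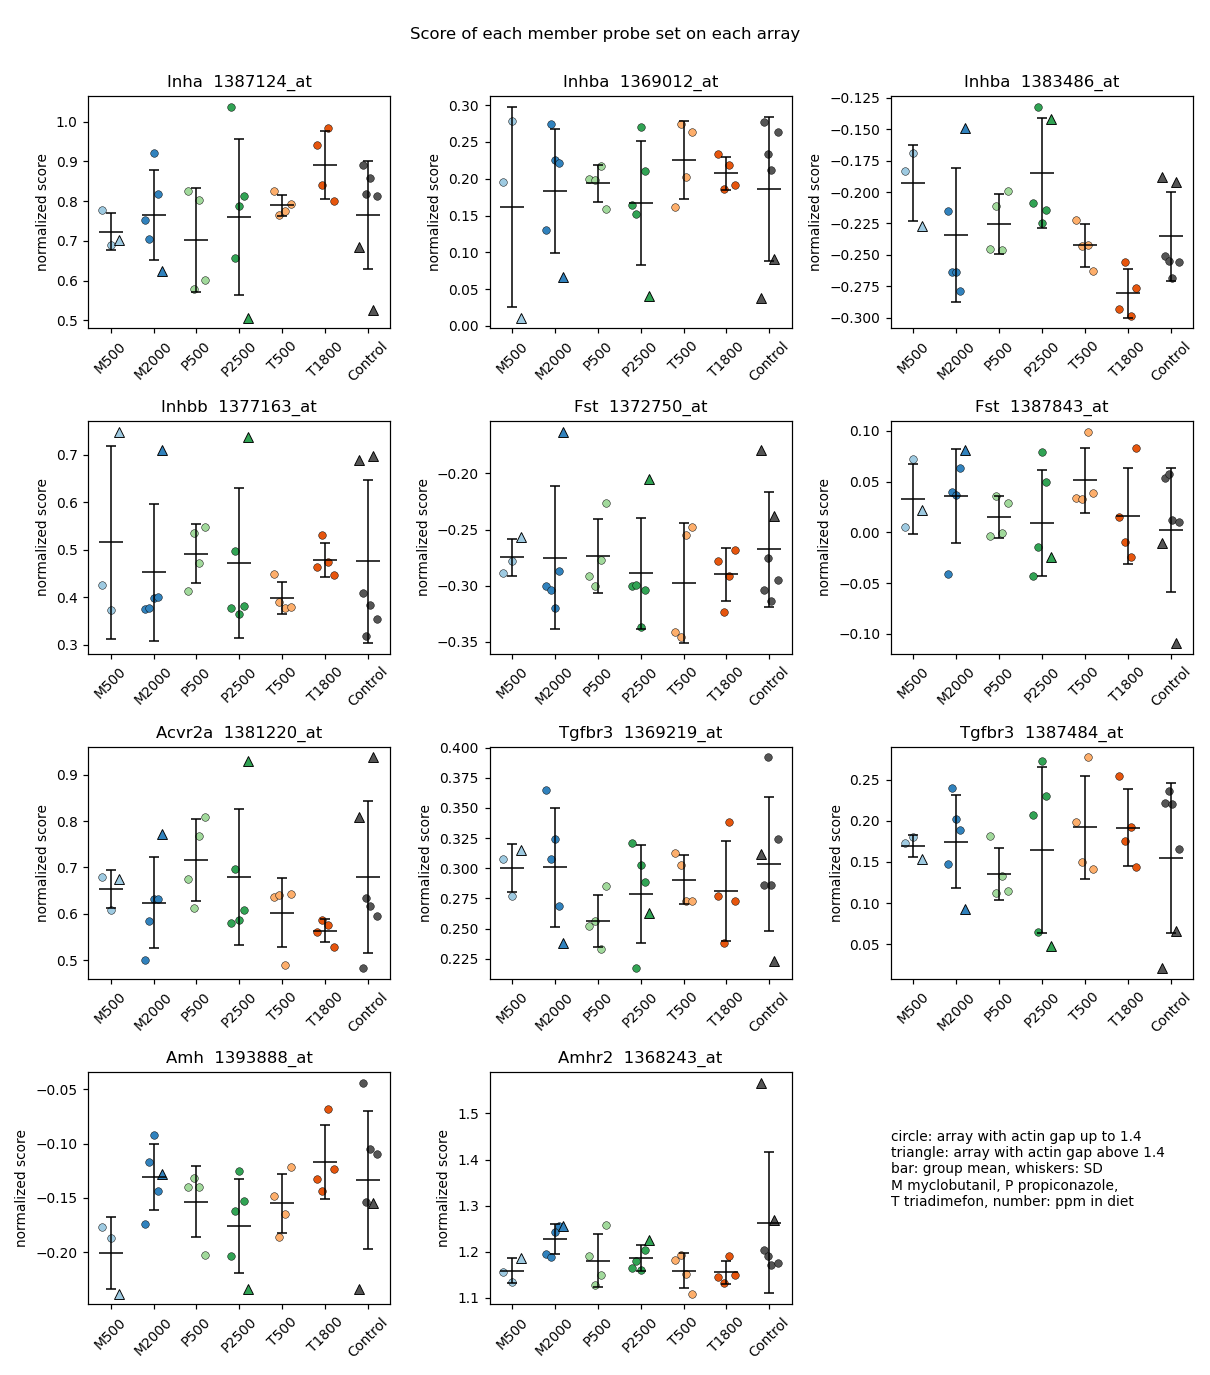
Normalized score (vertical axis, score units, a separate scale for each panel) of the 11 member probe sets on each array, by group. Circles are arrays with an actin gap up to 1.4 and triangles the 5 arrays above it, with the group mean as a bar and the SD as whiskers. The triangles top every group they belong to for Inhbb, at 0.689 to 0.748.

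**Figure D2:**
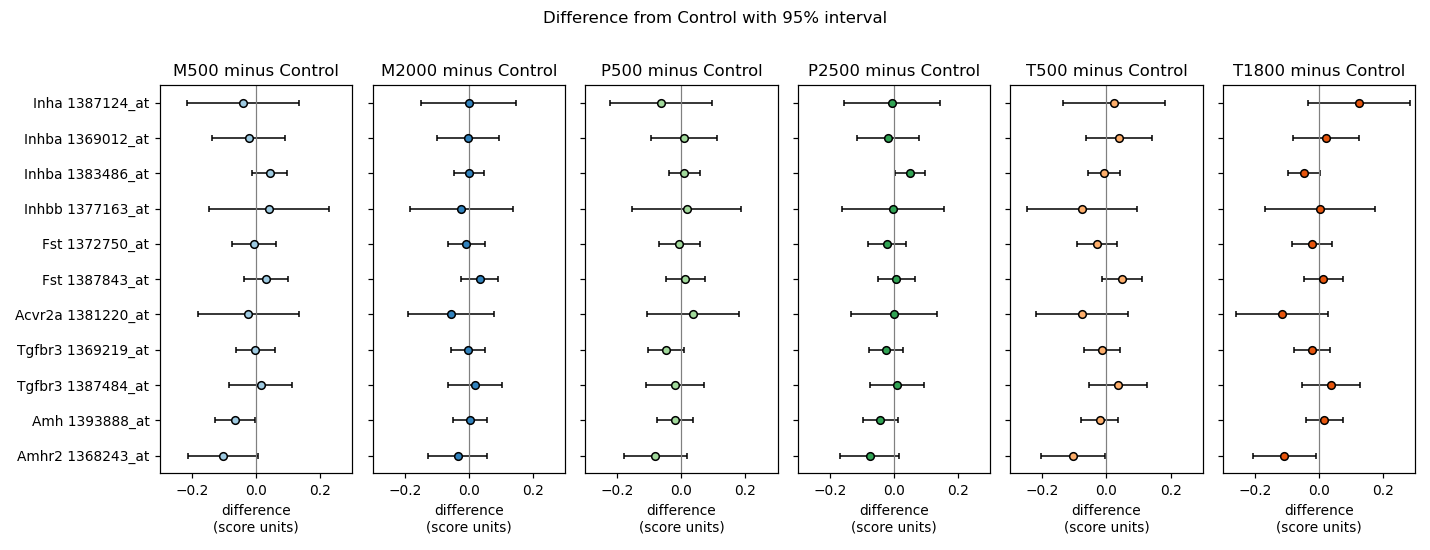
Difference of each exposed group from Control (horizontal axis, score units) for the 11 member probe sets, as a point with its 95% interval from the limma fit, unadjusted for the number of tests. The widest intervals are those of Inhbb, Inha and Acvr2a, and 4 of the 66 intervals leave out 0.

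Inha, the alpha subunit without which no inhibin is made, had its highest mean in T1800. Its probe set 1387124_at (gene at chr9:84443109-84446010 in GRCr8) scored 0.941, 0.84, 0.985 and 0.8 in T1800, against a lowest of 0.527, a median of 0.816 and a highest of 0.89 in Control. Replicates 02 and 04 of T1800 lay above every Control array, and the other 2 fell within the Control range. The means were 0.891 ± 0.0862 in T1800 (SD, n = 4) and 0.765 ± 0.136 in Control (SD, n = 6), a difference of 0.126 (SE 0.0776, interval -0.0335 to 0.285, adjusted p = 0.77). The upper end of that interval lies under the slope per doubling of the hybridisation controls, which need not hold for the Inha probe set. Without Control replicate 06, which held the lowest Control score, the difference was 0.0783, and without the 5 arrays of high actin gap it was 0.0462 (adjusted p = 0.97). Among the animals of the later number series alone the difference was 0.142 (adjusted p = 0.82). That series keeps Control replicate 06, at 0.527, beside Control replicates 05 and 07 at 0.858 and 0.813.

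In the other groups Inha overlapped Control. It scored 0.777, 0.691 and 0.703 in M500, and 0.753, 0.705, 0.922, 0.818 and 0.624 in M2000. In P500 the scores were 0.825, 0.578, 0.803 and 0.601, and in P2500 they were 1.04, 0.656, 0.787, 0.814 and 0.507. P2500 thus held both the highest and the lowest Inha score of the series, and the lowest came from its array of high actin gap. T500 was the tightest group, with 0.825, 0.766, 0.775 and 0.794. The largest step between neighbouring group means was the 0.101 from T500 up to T1800, which was smaller than the SD within groups of 0.126. Leydig cells also make Inha, and the mean of 9 Leydig markers was 1.09 in T1800 (0.94 to 1.15) and 0.933 in Control (0.813 to 1.09). The marker mean was also 1.12 in P2500 and 1.10 in T500, where Inha averaged 0.760 and 0.790, against 0.765 in Control. The part of cell composition in the Inha values was not tested.

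Inhbb, the beta B subunit that pairs with Inha in the main circulating inhibin of the male rat, differed without overlap between the arrays of high and low actin gap. Its probe set 1377163_at (gene at chr13:33083671-33089373) scored 0.689 to 0.748 on the 5 arrays of high gap and 0.317 to 0.548 on the other 26. Of all probe sets, 4.72% lay wholly higher on those 5 arrays in the same way. In M500 the scores were 0.425, 0.372 and 0.748, and in M2000 they were 0.374, 0.376, 0.399, 0.4 and 0.71. P500 had 0.412, 0.535, 0.472 and 0.548, and P2500 had 0.377, 0.498, 0.365, 0.382 and 0.738. The single high value of M500, of M2000 and of P2500 came in each case from the array of high gap.

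Triadimefon arrays, none of which had a high gap, showed Inhbb without these high values. T500 had 0.449, 0.389, 0.376 and 0.38, and T1800 had 0.463, 0.53, 0.473 and 0.447, against a lowest of 0.317, a median of 0.397 and a highest of 0.697 in Control. The means were 0.478 ± 0.0362 in T1800 (SD, n = 4) and 0.475 ± 0.172 in Control (SD, n = 6), a difference of 0.00328 (SE 0.083, adjusted p = 0.99). Without the 5 arrays of high gap, the 4 T1800 arrays at 0.447 to 0.53 lay wholly above the 4 remaining Control arrays at 0.317 to 0.409, as did 3.35% of all probe sets. The difference was then 0.112 with an adjusted p of 0.42, and it was 0.123 with an adjusted p of 0.13 when the gap entered the fit as a covariate. Inhbb in T1800 was singled out after its values were seen, and its probe set lay above bioB on only 2 of 31 arrays. The mean of 7 fibroblast and matrix genes was also higher in T1800, at 0.785 (0.733 to 0.847), than in Control, at 0.448 (0.296 to 0.569). It was likewise 0.708 (0.480 to 0.884) in T500, the group of lowest Inhbb mean at 0.399, and 0.6251 in P2500. The part of these cells in the Inhbb values was not tested. P500, too, lay above the 4 remaining Control arrays, where 5.84% of all probe sets did so, and 3 of its 4 arrays had gaps of 1.1 to 1.33, above the 0.833 to 0.878 of those Control arrays.

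Inhba, the beta A subunit of activin A and inhibin A, was read by a pair of probe sets that did not move together (gene at chr17:53787159-53810942). Probe set 1369012_at scored 0.0114 to 0.0914 on the 5 arrays of high actin gap and 0.13 to 0.278 on the other 26, again without overlap but in the direction opposite to Inhbb. Of all probe sets, 4.18% lay wholly lower on those 5 arrays. Probe set 1383486_at, one of the dimmest members, scored -0.227 to -0.142 on the same 5 arrays and -0.299 to -0.132 on the other 26. One probe set of the gene was thus lower and the other on average higher where RNA quality was lower.

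For 1383486_at the P2500 arrays scored -0.209, -0.132, -0.225, -0.214 and -0.142, against a lowest of -0.268, a median of -0.253 and a highest of -0.188 in Control. The 2 highest P2500 arrays were replicate 02, which carried liver transcripts, and replicate 05, which had the high actin gap. The means were -0.185 ± 0.0438 in P2500 (SD, n = 5) and -0.235 ± 0.0355 in Control (SD, n = 6), a difference of 0.0507 (SE 0.0227, unadjusted p = 0.034, adjusted p = 1). Leaving out the 3 arrays with liver transcripts together gave 0.0596 (adjusted p = 1). The other probe set gave -0.0182 for the same comparison. In T1800, 1383486_at had its lowest mean, -0.281 ± 0.0193 (SD, n = 4), and the step of 0.0383 below T500 was the only step between neighbouring group means, over all 11 probe sets, that exceeded the SD within groups (0.0359). That step had an adjusted p of 1, and T1800 against Control differed by -0.0456 (adjusted p = 0.77).

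Fst, follistatin, which binds activin and blocks its access to receptors, stayed near the middle and the bottom of the array (gene at chr2:47856345-47863670). Its brighter probe set 1387843_at had scores from -0.109 to 0.099 over all 31 arrays, and its dimmer one, 1372750_at, from -0.346 to -0.163. The largest difference of 1387843_at was in T500, which scored 0.034, 0.0332, 0.099 and 0.0393, against a lowest of -0.109, a median of 0.0112 and a highest of 0.0585 in Control. Replicate 03 of T500 lay above every Control array, and the other 3 lay inside the Control range. The difference was 0.0488 (SE 0.0301, adjusted p = 0.68). It was 0.0265 without Control replicate 06 and 0.033 without T500 replicate 03. For 1372750_at the T500 difference was -0.03 (adjusted p = 0.79), so the 2 probe sets pointed in opposite directions.

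Acvr2a, the type II receptor shared by activin and inhibin, had its lowest mean in T1800 (1381220_at, gene at chr3:53614143-53701933). T1800 scored 0.56, 0.587, 0.575 and 0.529, against a lowest of 0.482, a median of 0.6254 and a highest of 0.938 in Control. All 4 T1800 arrays fell inside the Control range, below its median. The means were 0.563 ± 0.025 in T1800 (SD, n = 4) and 0.679 ± 0.164 in Control (SD, n = 6), a difference of -0.116 (SE 0.07, interval -0.26 to 0.0275, adjusted p = 0.77). Without Control replicate 06, the highest, it was -0.0645, and without the 5 arrays of high gap it was -0.0192 (adjusted p = 0.98). Acvr2a averaged 0.824 on the arrays of high gap and 0.614 on the other 26, with overlap (0.674 to 0.938 against 0.482 to 0.808). Among the animals of the later number series T1800 differed from Control by -0.153 (adjusted p = 0.82). That series keeps Control replicate 06, at 0.938, beside Control replicates 05 and 07 at 0.616 and 0.596.

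The remaining Acvr2a scores covered the same range. P500 had the highest mean, with 0.675, 0.612, 0.769 and 0.808, and the 2 highest of these came from arrays with actin gaps of 1.27 and 1.33. M500 scored 0.68, 0.607 and 0.674, and T500 scored 0.637, 0.641, 0.49 and 0.642. No step between neighbouring group means exceeded 0.0393, beside an SD within groups of 0.113.

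Tgfbr3, betaglycan, the co-receptor that gives inhibin its hold on the type II receptor, was read by 1369219_at and 1387484_at (gene at chr14:2634294-2810269). The lowest mean of 1369219_at was in P500, with scores of 0.252, 0.256, 0.233 and 0.285, against a lowest of 0.223, a median of 0.299 and a highest of 0.392 in Control. All 4 P500 arrays lay inside the Control range and below its median. The difference was -0.0474 (SE 0.0271, adjusted p = 1), and it was -0.0298 without Control replicate 04, the highest. Without the 5 arrays of high gap P500 averaged 0.256 and Control 0.322. Over 21 alternative values the difference ran from -0.0794 to -0.0298, with a lowest adjusted p of 0.17. For 1387484_at P500 was also lowest, at 0.135 ± 0.032 (SD, n = 4) against 0.155 ± 0.0908 in Control (SD, n = 6). The P500 difference of 1387484_at was -0.0199 (adjusted p = 1). On the 5 arrays of high gap 1387484_at averaged 0.0766, against 0.186 on the other 26.

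Leaving out the 5 arrays of high gap brought further members out of the Control range, at rates to be read against all probe sets. In M500, with 2 arrays left, 1 of 11 member probe sets lay wholly above the 4 Control arrays (10.2% of all) and 3 lay wholly below (9.4% of all), which were Inha, Amh and Amhr2. In P500, 2 lay above (5.84% of all), Inhbb and Inhba 1383486_at, and 1 below (4.41% of all), Tgfbr3 1369219_at. In P2500, 1 lay above (2.02% of all), again Inhba 1383486_at, and 0 below (2.54% of all). In T1800 these were 1 above (3.35% of all), Inhbb, and 0 below (3.16% of all). In M2000 (1.92% above, 1.76% below) and T500 (2.47% above, 2.3% below) there were 0 in either direction.

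**Figure D3:**
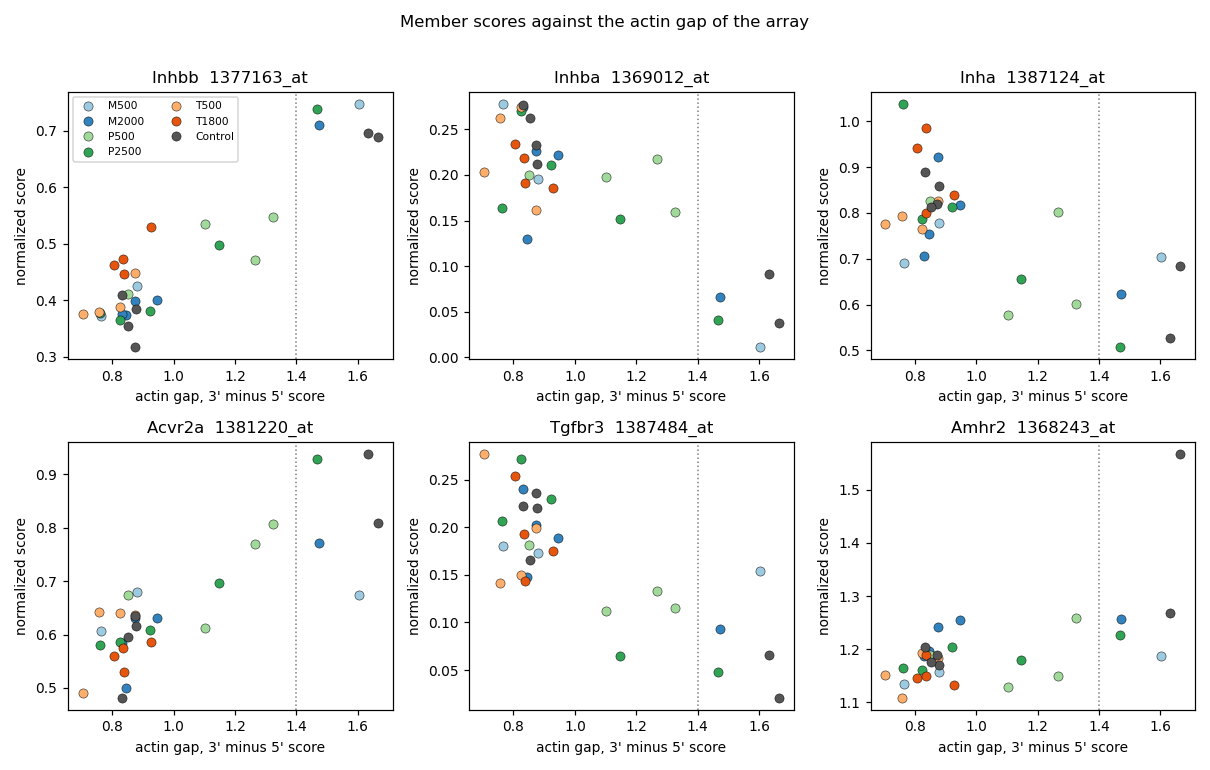
Normalized score (vertical axis) of 6 member probe sets against the actin gap of the array (horizontal axis, score units), with 1 point for each of the 31 arrays coloured by group. Right of the dotted line at 1.4, Inhbb lies at 0.689 to 0.748, above all other arrays, and Inhba 1369012_at at 0.0114 to 0.0914, below all other arrays.

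Amh, the Sertoli cell hormone whose output is high before puberty and low in the adult, was dim on all arrays (1393888_at, gene at chr7:9557451-9559867). M500 scored -0.177, -0.187 and -0.238, against a lowest of -0.234, a median of -0.132 and a highest of -0.0443 in Control. The 3 M500 arrays lay at the low end of the Control range or below it, and the lowest of them was the array of high actin gap. The means were -0.201 ± 0.0328 in M500 (SD, n = 3) and -0.134 ± 0.0638 in Control (SD, n = 6), a difference of -0.0671 (SE 0.0303, unadjusted p = 0.036, adjusted p = 0.51). With the gap as a covariate it was -0.0705 (adjusted p = 0.16).

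At the higher dose of myclobutanil the Amh scores did not share this position. M2000 had -0.174, -0.117, -0.0925, -0.144 and -0.128, against -0.177, -0.187 and -0.238 in M500. The 5 M2000 arrays lay wholly above the 3 M500 arrays, the nearest by a narrow margin. The difference was 0.0699 (SE 0.0313, unadjusted p = 0.034, adjusted p = 0.63). M2000 averaged -0.131 ± 0.0303 (SD, n = 5), beside the Control mean of -0.134. In P500, P2500, T500 and T1800 the Amh differences from Control were -0.0199, -0.0419, -0.0214 and 0.0166, with adjusted p from 0.83 to 1.

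Amhr2, the type II receptor dedicated to AMH, was the brightest member (1368243_at, gene at chr7:135454517-135470183). Its mean was 1.16 in M500, 1.23 in M2000, 1.18 in P500, 1.19 in P2500, 1.16 in T500 and 1.16 in T1800, against 1.26 in Control. All 6 exposed means lay below that of Control. Control replicate 02, an array of high gap and of wide deposited range, scored 1.57, and the other 5 Control arrays scored 1.17 to 1.27. Without that array Control averaged 1.2, and 5 of the 6 exposed means still lay below it, the exception being M2000. T1800 scored 1.15, 1.13, 1.19 and 1.15, and T500 scored 1.18, 1.19, 1.15 and 1.11. The lower arrays of both groups lay below all 6 Control arrays, whose lowest score was 1.17 and median 1.2, and the higher ones overlapped them.

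The T1800 difference in Amhr2 was -0.108 (SE 0.0482, unadjusted p = 0.034, adjusted p = 0.77), and the T500 difference was -0.104 (unadjusted p = 0.04, adjusted p = 0.64). Without Control replicate 02 they were -0.0471 and -0.0432, with adjusted p of 1 and 0.99. Without the 5 arrays of high gap, Control averaged 1.19 ± 0.0147 (SD, n = 4), T1800 differed from it by -0.0304 and T500 by -0.0265. Among the animals of the later number series T1800 differed by -0.0475 (adjusted p = 0.82). That series keeps Control replicate 06, of high gap, at 1.269, beside Control replicates 05 and 07 at 1.171 and 1.176. The step between neighbouring group means was at most 0.0403, beside an SD within groups of 0.0769.

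At the shared dose of 500 ppm the compounds can be compared directly. Beside the shared triazole, myclobutanil has a nitrile, propiconazole a dioxolane ring and triadimefon a ketone. None of the 11 member probe sets passed the adjusted threshold for P500 against M500, T500 against M500 or T500 against P500, where 0% of all probe sets passed in each of the 3 pairs. At an unadjusted p under 0.05 there were 0 members in each pair, beside 7.48%, 6.69% and 5.08% of all probe sets. The differences ran from -0.0437 to 0.0623 for P500 against M500, from -0.117 to 0.0665 for T500 against M500, and from -0.114 to 0.0881 for T500 against P500. The largest was that of Inhbb for T500 against M500 (-0.117, SE 0.0982, adjusted p = 0.74), where the M500 mean includes an array of high gap. Its 95% interval ran from -0.318 to 0.0848, and the intervals of all 11 probe sets for that pair ended between -0.318 and 0.255. The higher doses differ between the compounds, and no comparison was made among them.

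Between the 2 doses of each compound 0 of 11 member probe sets passed, with 0% of all probe sets passing for M2000 against M500 and for P2500 against P500, and 0.00322% for T1800 against T500. At an unadjusted p under 0.05 stood only Amh in M2000 against M500, where 7.55% of all probe sets did so. In P2500 against P500 (3.83% of all) and T1800 against T500 (1.97%) no member did. In M2000 against M500, Amh and Amhr2 lay wholly higher, as did 1.61% of all probe sets. Amhr2 scored 1.2, 1.19, 1.24, 1.25 and 1.26 in M2000 against 1.16, 1.13 and 1.19 in M500, and the nearest arrays of the 2 groups differed only in the third decimal. Its difference was 0.0683 (SE 0.0546, adjusted p = 0.83).

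The wider TGF-beta pathway was read from a list of 66 genes, of which 56 were measured. These were 13 of 18 ligands and antagonists of the activin and inhibin branch, 17 of 18 other ligands and antagonists of the family, 4 of 4 processing enzymes, 8 of 10 receptors, and 14 of 16 SMADs and their partners. In each of the 12 comparisons 0 of the 56 rose and 0 fell. The smallest adjusted p was 0.24, in M500. At an unadjusted p under 0.05 stood 2 of 56 in M500 (9% of all probe sets), 0 in M2000 (1.7%), 2 in P500 (3.36%), 3 in P2500 (4.15%), 1 in T500 (7.62%) and 3 in T1800 (5.84%). Median differences of the list from Control ran from -0.0091 (P500) to 0.00353 (T500).

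**Figure D4:**
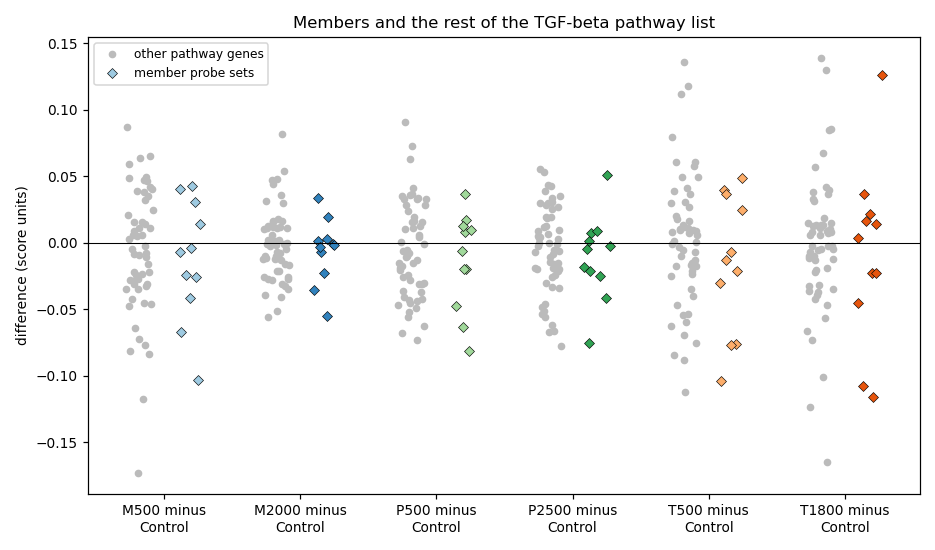
Difference of each exposed group from Control (vertical axis, score units) for the 56 other pathway genes (grey points) and the 11 member probe sets (coloured diamonds). No point passed the adjusted threshold, and the pathway gene farthest below 0 in M500 is Igsf1 at -0.173.

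Igsf1, a membrane glycoprotein studied for its link to inhibin and activin signalling, was the pathway gene with the smallest p. It averaged 1.42 ± 0.134 in M500 (SD, n = 3) and 1.6 ± 0.0507 in Control (SD, n = 6), a difference of -0.173 (SE 0.0512, adjusted p = 0.24), with no overlap. The M500 array of high gap, replicate 04, scored 1.27 and the other M500 arrays 1.53 and 1.47. Without replicate 04 the difference was -0.0971 (adjusted p = 0.77). At the higher dose, M2000 averaged 1.59 ± 0.0557 (SD, n = 5), so the M500 position was not shared there. Smurf1, a ubiquitin ligase that marks SMADs and receptors for breakdown, averaged 0.443 in M500 and 0.52 in Control (adjusted p = 0.33). Without overlap between groups, 2 of 56 genes lay lower in M500, where 0.889% of all probe sets did so.

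In T1800, 2 of 56 pathway genes lay wholly above Control, as did 1.13% of all probe sets, and 1 wholly below, as did 0.815%. Acvr1, a type I receptor of the family, averaged -0.0353 ± 0.0213 in T1800 (SD, n = 4) and -0.0922 ± 0.0216 in Control (SD, n = 6), without overlap (adjusted p = 0.77). Fstl5, a follistatin-like gene, averaged -0.414 in T1800 and -0.29 in Control, also without overlap (adjusted p = 0.77). Both genes were dim: over all arrays Acvr1 scored at most -0.0094 and Fstl5 at most -0.0684. They thus lay below Tgfbr3 1369219_at (0.217 to 0.392), a member under bioB on every array. The Control arrays of high gap, replicates 06 and 02, scored -0.117 and -0.225 for Fstl5, the highest of the 6, and without the arrays of high gap the difference of -0.124 was -0.0644. Bambi, a decoy receptor that dampens signalling of the family, averaged 0.662 in T1800 and 0.595 in Control (adjusted p = 0.77), a difference of 0.0676. It was 0.0424 without Control replicate 06, which scored 0.469, and 0.0186 without all arrays of high gap. In T500 Gdf9, best known as a growth factor of the oocyte, averaged 0.328 ± 0.0711 (SD, n = 4), against 0.192 ± 0.152 in Control (SD, n = 6, adjusted p = 0.65), a difference of 0.135. Control replicates 02 and 06 scored -0.057 and 0.063, below the 0.268 to 0.302 of the other 4, and the difference was 0.0855 without replicate 02 and 0.0409 without the arrays of high gap. Bmp8a, a germ cell ligand in the mouse, averaged 0.00212 in T500 and 0.0772 in Control (adjusted p = 0.66), and the difference of -0.0751 was -0.0468 without Control replicate 06 and -0.0254 without the arrays of high gap.

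Propiconazole and the higher myclobutanil dose gave no smaller adjusted p. Bambi averaged 0.686 in P500 and 0.595 in Control, and Bmpr1a, a type I receptor for bone morphogenetic proteins, averaged 0.056 in P500 and 0.119 in Control, both with an adjusted p of 1. For Bambi in P500 the difference was 0.0908, and 0.0418 without the arrays of high gap. In P2500, Smurf1 averaged 0.466 against 0.52 in Control (adjusted p = 0.97), a difference of -0.0539 that was -0.0221 without the arrays of high gap, and Smad3, which carries the activin signal to the nucleus, averaged 0.444 against 0.511 in Control (adjusted p = 1). Chrd, chordin, an antagonist of bone morphogenetic proteins, led in M2000 with -0.11 against -0.0591 in Control (adjusted p = 1). Inhbc and Inhbe, the beta subunits made chiefly in liver, averaged -0.397 and 0.231 in P2500, where 3 arrays carried liver transcripts, and -0.403 and 0.25 in Control (adjusted p of 1 for each).

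The genes whose scores over the 31 arrays were most like those of a member were named by Pearson's r, given without a test. The arrays share diet groups and RNA quality, and the value over the 26 arrays of low gap follows each one. For Inha these were Ucp2, a mitochondrial carrier protein (0.911 and 0.867), Pa2g4, a regulator of growth and translation (0.896 and 0.876), and Aff3, a nuclear protein (0.876 and 0.837). For Inhbb they were Ankrd44 (0.953 and 0.831), Zbtb44 (0.952 and 0.787) and Twsg1, a secreted binder of bone morphogenetic proteins (0.952 and 0.733). The first in rank was Cox8b, a subunit of cytochrome oxidase, for Inhba (0.919 and 0.724), Ppp2r5c, a phosphatase subunit, for Acvr2a (0.92 and 0.802), and Ciapin1 for Amhr2 (0.898 and 0.583). It was Pax8 for Fst (0.775 and 0.76), Wasf3 for Tgfbr3 (0.72 and 0.655) and Chtf18 for Amh (0.818 and 0.769).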

How the data were processed

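Per the labels' protocols, total RNA of each testis was primed with oligo-dT and hybridised as biotin-labelled cRNA. The deposited values are a score per probe set made by the authors. Summarisation, background correction and normalization are not given in the sources used here. Of 34 labelled arrays 31 held values, and the labels leave Control replicate 01, M500 replicate 03 and T1800 replicate 01 out. All 31099 probe sets were quantile normalized together. After removal of 57 control probe sets, 31042 were fitted with limma 3.58.1 in R 4.3.3 (lmFit, eBayes, 1 mean per group over 31 arrays, equal weights). This gave 12 contrasts with Benjamini-Hochberg adjustment over the 31042 and a threshold of 0.05. The fit was tested on simulated data with independent noise for each probe set and shifts in T1800 only. The simulation held no differences in quality between arrays, so it does not show how the fit handles them. The platform annotation gave 20826 probe sets 1 symbol, 436 several and 9780 none, and names may be old. Gene positions are RefSeq's (GRCr8), matched by gene ID for all 8 genes. A gene of the pathway list stands by its probe set of highest mean, and per comparison the 3 of smallest p, with Inhbc and Inhbe, could be named. The 3 most correlated genes stood for likeness. Members, lists and tests were chosen with earlier results of these data known. The number of arrays limits the precision. Labelled replicate numbers were not taken as pairs of animals, and alternatives are given in the closing section.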

Additional observations from a re-analysis of the deposited data

Results flagged for a closer look

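The scores of the 11 probe sets in the groups of 4 to 6 arrays were searched for 1 array far from its group by Dixon's criterion at the 95% level, which gave 66 sets. It picked out 7 scores, and chance picks 1 in about 20 sets. M2000 replicate 05, an array of high actin gap, stood apart for Inhbb at 0.7096 (the others 0.374 to 0.400) and for Fst 1372750_at at -0.163 (the others -0.320 to -0.287). P2500 replicate 05, also of high gap, stood apart for Fst 1372750_at at -0.205. Control replicate 02, the array with the largest gap, stood apart for Amhr2 at 1.567 (the others 1.171 to 1.269). T500 replicate 03, with the smallest gap of the series, stood apart for Fst 1387843_at at 0.099 and for Acvr2a at 0.490. P500 replicate 04 stood apart for Amh at -0.202. The part of RNA quality, or of the wider deposited range of Control replicate 02, in these scores was not tested.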

How the results depend on the processing

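No member probe set passed the adjusted threshold under any of the 13 other settings or the 31 fits that each left out 1 array, in any of the 12 comparisons. Of the 14 member differences followed one by one, 274 of 293 alternative values kept their sign. Inhbb in T1800 was -0.0345 on the scores as deposited and -0.0264 with arrays scaled to 1 median and median absolute deviation, and -0.0284 to 0.0478 with 1 array left out. In T500, the difference of Inhba 1369012_at was -0.00121 with array weights, -0.0384 with the actin gap in the fit and -0.0207 when the 5 arrays of high gap were left out. Under the same 3 settings Inhbb in T500 was 0.0193, 0.0708 and 0.0326, and Tgfbr3 1387484_at was -0.0136, -0.0235 and -0.0193. Fst 1372750_at in T500 was 0.0069 with the gap as a covariate and 0.0094 for the mean of its probe sets. The 14 pathway differences from Control given above had 157 values without the arrays of high gap or without 1 array, chosen after seeing the data. None passed the threshold and 6 had the opposite sign: Inhbc in P2500 was -0.0184 without the arrays of high gap and -0.012 to 0.0165 with 1 array left out, and Inhbe in P2500 -0.0414 to 0.00404. The cause of these turns was not tested. Over all member differences 14.4% of 1449 values under other settings, and 13.6% of 1188 with 1 array left out, had the opposite sign.

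The number of all probe sets past the threshold, 2 for T1800 against Control, 1 for T1800 against T500 and 0 elsewhere, moved with the setting. Array weights gave 61 for M500, 8 for M2000, 17 for P500, 882 for P2500, 44 for T500 and 264 for T1800 against Control, 53 for T500 against P500, 13 for M2000 against M500, 855 for P2500 against P500 and 36 for T1800 against T500. The gap as a covariate gave 231, 50 and 0 for M500, P2500 and T1800, 15 for P500 against M500, 22 for P2500 against P500 and 2 for T1800 against T500. Without the 5 arrays of high gap there were 18, 198, 308, 2 and 0 for M500, P500, P2500, T500 and T1800, 11 for P500 against M500, 676 for T500 against P500, 1 for M2000 against M500, 426 for P2500 against P500 and 3 for T1800 against T500. The scores as deposited gave 6 for M500, 0 for T1800, 1 for P500 against M500, 7 for M2000 against M500 and 0 for T1800 against T500. Scaling to 1 median and median absolute deviation gave 15, 1, 1 and 0 for M500, T1800, P500 against M500 and T1800 against T500. Fits of only the groups compared gave 1 each for P2500, T500 and T1800, 2 for P500 against M500 and 0 for T1800 against T500. Robust eBayes with a trend gave 2 for P2500 and 1 for T500, and only probe sets above the median score gave 1 and 2. T1800 against T500 gave 0 with the animal number series as a block, and the later series alone, chosen after seeing the data, gave 0 for T1800 against Control.

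The replicate block gave 1 each for M500, P2500, T500 and T1800 and 0 for T1800 against T500, and Tgfbr3 1387484_at in T500 was -0.00136 with it. Deviations of same-numbered arrays from their group means correlated between -0.768 and 0.574 over 20 pairs (0.153 to 0.191 over the 3 pairs of T500). The numbers were not taken as pairs, but with so few arrays per group these values cannot show whether litters were numbered alike. With 1 array left out, the counts ranged from 0 to 156 for M500, 0 to 283 for P2500, 0 to 3 for T500 and 0 to 5 for T1800 against Control. They ranged from 0 to 19 for P500 against M500, 0 to 5 for T500 against M500, 0 to 35 for M2000 against M500, 0 to 242 for P2500 against P500 and 0 to 2 for T1800 against T500. The highest counts came without M500 replicate 01 (156) and without P2500 replicate 05 (283). Signal below the weakest hybridisation control limits 7 of the 11 probe sets on every array. It also limits Inhbb, above that control on only 2 of 31 arrays, and Acvr2a, above it on 10.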
